A study of Sus scrofa with 6 samples.

Results

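The miR-99/100 and miR-125 families were followed in small RNA libraries of pig immature Sertoli cells in culture, a somatic cell of the testis that supports developing germ cells. Their members were taken by name, as every entry of the deposited table called miR-99a, miR-99b, miR-100, miR-125a or miR-125b with or without an arm, which gave 6 of 1645 entries: miR-99a-5p, miR-99a-3p, miR-99b, miR-100, miR-125a and miR-125b. The cells came from testes at 80 to 90 days of gestation, were grown in medium with 10% serum, and were cultured for 6 h before treatment. Control cells (3 libraries) received no treatment, and treated cells (3 libraries) received 250 µM AA2P (L-ascorbic acid 2-phosphate), a form of vitamin C that keeps in culture medium. How long the cells were treated, the breed and the number of animals are not stated. Nor do the labels tell whether replicate libraries had separate cultures or animals as their source, so p-values measure the spread among these libraries, which may be technical.

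In mammals these miRNAs are made from 3 related transcripts, each of which carries a miR-99/100 hairpin, a let-7 hairpin and a miR-125 hairpin. miR-99a, miR-99b and miR-100 share the seed by which a miRNA recognises its targets, and they are known to repress MTOR and the receptor IGF1R. miR-125a and miR-125b share another seed, are the vertebrate relatives of the worm miRNA lin-4, and like let-7 rise during differentiation in many tissues. In RefSeq (assembly Sscrofa11.1), MIR99A has MIRLET7C as its next miRNA gene, MIRLET7E lies between MIR125A and MIR99B, and MIRLET7A-1 lies between MIR125B-1 and MIR100. In other mammals a further miR-125b hairpin accompanies miR-99a and let-7c, but in RefSeq the next miRNA gene after MIRLET7C is MIR155. The table holds a single entry each for let-7a and miR-125b, so miR-125b is not shown to come from the MIR99A neighbourhood. RefSeq lists a further let-7a gene, MIRLET7A-2, beside MIRLET7F-2, so let-7a cannot be assigned to MIRLET7A-1 alone.

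Values are in TPM, here reads scaled to a common total in each library, with depths of 25.8 to 36.0 Mreads (M for mega) derived from the smallest step between values. miR-99a-3p therefore rested on 49 to 154 reads a library, and each other member on at least 23643. Entries that reached 1 TPM in 3 or more libraries were tested. All 6 members did, among 433 entries in all. Across these entries 24.7% were called by limma on log2(TPM + 1) at an adjusted p under 0.05 (19.9% higher and 4.85% lower with AA2P), and for 49.7% the 2 groups did not overlap. These shares are the background for the members. In such bulk libraries a change in the share of cells that express a miRNA and a change in its amount per cell cannot be told apart.

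With AA2P, miR-99a-5p rose about 2-fold while its close relatives miR-99b and miR-100 and both miR-125 entries did not pass the test in the deposited TPM. Of the 6 members 1 was called in the deposited TPM, as higher, and 0 as lower (16.7% against the background of 24.7%). Among known miRNAs alone, to which all members belong, the share called was 31.8%. For 2 members, the arms of miR-99a, the groups did not overlap (against 49.7%). The median log2 fold change of the members was 0.12, below the 0.25 of all tested entries.

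miR-100 was by far the most abundant member and the sixth most abundant entry of the table. It measured 21854, 24629 and 21113 TPM in the control libraries and 25215, 20854 and 23597 TPM with AA2P. The AA2P libraries held both the lowest and the highest of these values, and the groups overlapped. Its ratio of means was 1.03 and its log2 fold change 0.04, with a 95% interval of -0.20 to 0.28 (limma, adjusted p = 0.746). That interval lies below the interval of miR-99a-5p, 0.81 to 1.39.

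miR-99a-5p, which differs little in sequence from miR-100, measured 1664, 1360.1 and 1564 TPM in the control libraries and 3571, 3421 and 2857 TPM with AA2P. Every AA2P library lay above every control library, and the gap between the groups was wider than the spread within either. The mean went from 1529 ± 155 to 3283 ± 377 TPM (SD, n = 3 per group), 2.15-fold higher. The log2 fold change was 1.10 with an SE of 0.119 (limma, adjusted p = 0.00299), which ranked 14 among the 249 tested entries with a mean of at least 10 TPM. It was called in all 18 alternatives run, at log2 fold changes of 0.80 to 1.20 (limma, adjusted p from 2.18e-08 with known miRNAs only to 0.0184 without control replicate 3).

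The other arm of the same hairpin, miR-99a-3p, was scarce. It measured 2.32, 1.52 and 2.47 TPM in controls and 5.32, 4.28 and 2.92 TPM with AA2P, so that the groups did not overlap but came close. Its mean was 2.10 ± 0.511 TPM in controls and 4.17 ± 1.20 TPM with AA2P (SD, n = 3 per group), a ratio of 1.98. It did not pass over all entries (log2 fold change 0.72 on the log2(TPM + 1) scale, 95% interval 0.13 to 1.32, limma, adjusted p = 0.0778). It passed in only 1 of 17 alternatives, with predicted entries left out of the fit (limma, adjusted p = 0.00307). In that fit 42.8% of 264 entries were called.

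The arms of miR-99a were also compared with each other. The 3p arm made up 0.139, 0.112 and 0.158% of both arms in controls and 0.149, 0.125 and 0.102% with AA2P, and the groups overlapped. The 3p arm lay under the mean of 10 TPM set for testing arm use. With a mean of 1 TPM in each arm required, the log2 ratio of 5p to 3p, each with 1 TPM added, was 8.97, 9.08 and 8.82 in controls and 9.14, 9.34 and 9.51 with AA2P, with no overlap. The difference of 0.38 (95% interval 0.07 to 0.69) did not pass over 60 hairpins, of which 0% did (limma, adjusted p = 0.210). Without the added 1 TPM, the ratio of 5p to 3p averaged 748 ± 134 over the controls and 816 ± 154 over the AA2P libraries (SD of 3 libraries each).

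miR-99b, the product of the MIR125A, MIRLET7E and MIR99B neighbourhood, measured 2330.4, 2419 and 2079 TPM in controls and 2668, 2559 and 2305 TPM with AA2P. The groups overlapped, and the log2 fold change of 0.14 did not pass (95% interval -0.08 to 0.36, limma, adjusted p = 0.294).

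miR-125b was the more abundant miR-125 entry. It measured 3511, 2971 and 3286 TPM in controls and 3302, 3149 and 2919.7 TPM with AA2P, with overlapping groups and a log2 fold change of -0.06 (95% interval -0.27 to 0.16, limma, adjusted p = 0.626). It was the only member with a negative change in the deposited TPM, and under 4 of 5 other scalings it was called lower, at -0.25 to -0.35. miR-125a measured 1036, 733 and 966 TPM in controls and 881, 1205 and 835 TPM with AA2P. Its groups overlapped in part, and its log2 fold change of 0.09 had a wide interval of -0.37 to 0.55 (limma, adjusted p = 0.724). Among the members other than miR-99a-3p, miR-125a varied most within groups, with an SD of 17.4% of the mean in controls and 20.7% with AA2P.

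**Figure D1:**
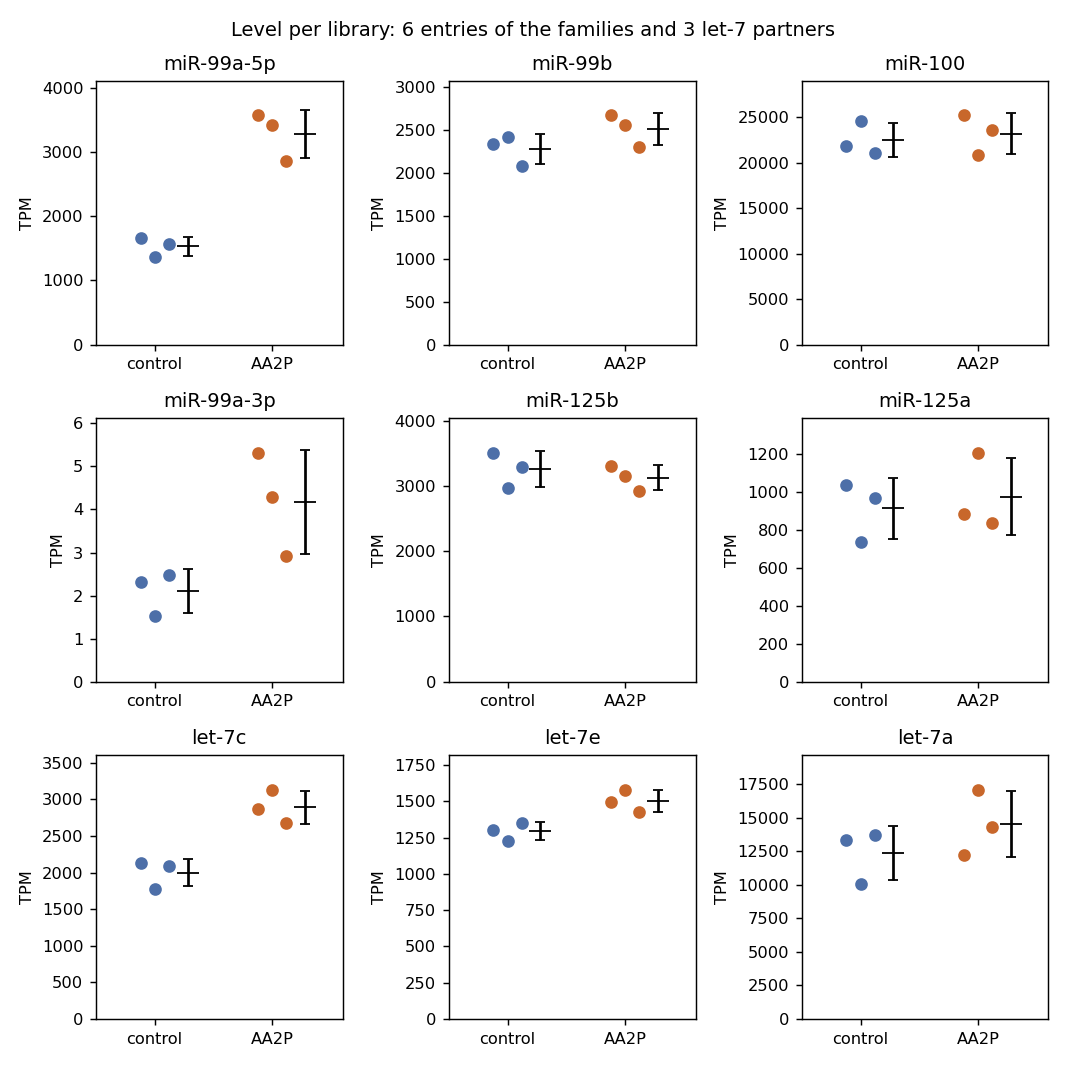
TPM of the 6 family entries and their 3 let-7 partners in each library, on linear axes that start at 0, with control libraries in blue, AA2P libraries in orange (replicates 1 to 3 from left to right) and the mean ± SD of the 3 libraries beside them. The groups are separate for miR-99a-5p, miR-99a-3p, let-7c and let-7e and overlap for the other entries.

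The order of the levels changed at miR-99a-5p. In controls it ran miR-100, miR-125b, miR-99b, miR-99a-5p, miR-125a and miR-99a-3p, with no overlap between neighbours. With AA2P the mean of miR-99a-5p stood second, but its 2857 to 3571 TPM overlapped the 2919.7 to 3302 TPM of miR-125b, which did not overlap the 2305 to 2668 TPM of miR-99b. miR-99a-5p supplied 6.44, 4.79 and 6.32% of the summed miR-99/100 main arms in controls and 11.4, 12.7 and 9.93% with AA2P. miR-100 supplied 84.5, 86.7 and 85.3% in controls and 80.2, 77.7 and 82.1% with AA2P. The share of miR-99b was 8.64% ± 0.328 and 8.68% ± 0.779 (SD, n = 3 per group).

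miR-100 made up most of the pool with the shared seed, and the groups overlapped in that pool as a whole. The sum of miR-99a-5p, miR-99b and miR-100 was 25849, 28408 and 24755 TPM in controls and 31455, 26834 and 28758 TPM with AA2P, a ratio of means of 1.10. The sum of miR-125a and miR-125b was 4168 ± 427 TPM in controls and 4097 ± 309 TPM with AA2P (SD, n = 3 per group). How reads that match both miR-99a and miR-100 were divided is not stated. The sums do not depend on that division among the entries summed, whereas the single entries do.

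The 3 let-7 partners belong to a family that represses cell cycle and growth genes. Of these partners 1 was called (33.3%, against 24.7% of all tested entries and 31.8% of known miRNAs). For 2 of them the groups did not overlap, against 49.7% of all tested entries. let-7c, from the gene next to MIR99A, measured 2128, 1782 and 2086 TPM in controls and 2868, 3133 and 2677 TPM with AA2P. The groups did not overlap, and let-7c rose 1.45-fold (log2 fold change 0.53, SE 0.10, limma, adjusted p = 0.0128). let-7e, from the gene between MIR125A and MIR99B, measured 1299, 1228 and 1353 TPM in controls and 1497, 1580.4 and 1429 TPM with AA2P. These groups did not overlap either, but the log2 fold change of 0.22 did not pass (limma, adjusted p = 0.0788). let-7a measured 13332, 10020.4 and 13744 TPM in controls and 12235, 17084 and 14289.9 TPM with AA2P, with overlapping groups and a log2 fold change of 0.23 (limma, adjusted p = 0.343).

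The scaling of the libraries bears on these values. Over the tested entries the median log2 fold change, 0.25 as deposited, fell by 0.18 to 0.26 under 5 other scalings. As deposited, 86 entries were called higher and 21 lower. The split was 48 and 50 with trimmed-mean scaling (22.6% called), 48 and 50 with median-of-ratios scaling (22.6%), 39 and 43 with totals without miR-21-5p (18.9%), 55 and 36 with totals without the 10 most abundant entries (21%), and 44 and 40 with quantile normalization (19.4%). miR-99a-5p was called higher under all 5 (log2 fold change 0.80 to 0.91). miR-125b was called lower under 4 of them, at -0.33, -0.33, -0.35 and -0.25 (limma, adjusted p = 0.0113, 0.0115, 0.0305 and 0.0411), and was at -0.02 under quantile normalization (adjusted p = 0.815). miR-100 and miR-125a lay below 0 under all 5, miR-99b under 4, and none of these was called. The call of let-7c held with totals without the 10 most abundant entries and with quantile normalization and ended under the other 3 scalings (log2 fold change 0.24 to 0.26, limma, adjusted p = 0.0563 to 0.0769).

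**Figure D2:**
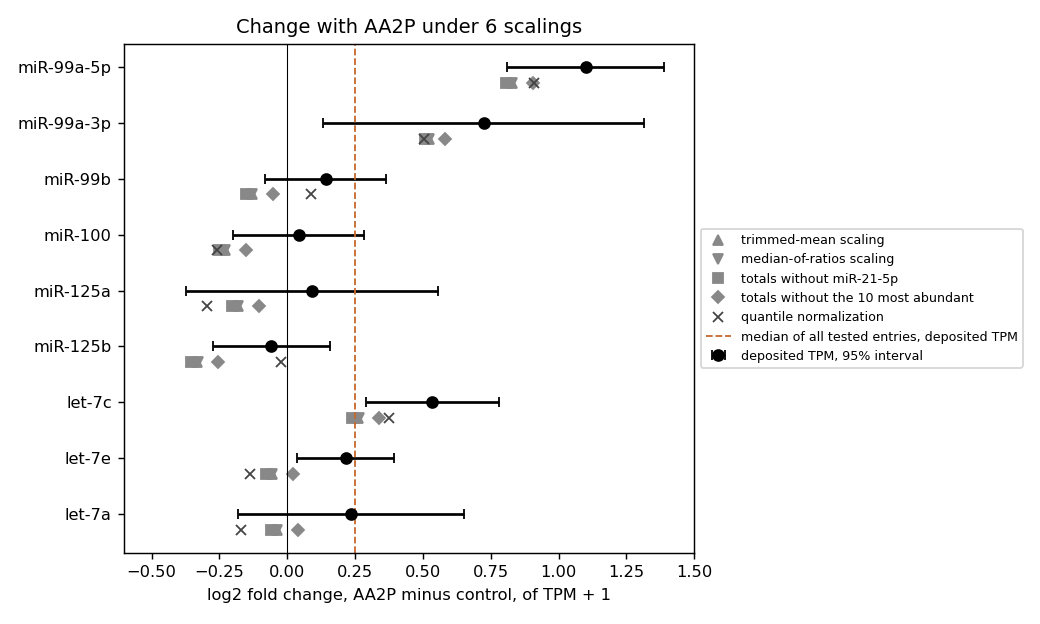
Log2 fold change of TPM + 1, AA2P minus control, for the 6 family entries and 3 let-7 partners: black circles with 95% intervals for the deposited TPM, grey symbols and crosses for 5 other scalings, and a dashed line at the median of all tested entries (0.25). Only miR-99a-5p lies above 0.75 under every scaling, and miR-99b, miR-100, miR-125a, let-7e and let-7a cross 0 between scalings.

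Ratios of entries within a library do not depend on scaling it by a single factor, apart from the added 1 TPM. Quantile normalization does change them. Whether the change of one entry differed from that of another was tested by limma on the log2 ratio of every tested entry to a reference entry, with p-values adjusted over the 432 entries of each fit. miR-99a-5p and let-7c were paired with miR-125b by the arrangement in other mammals, not by their RefSeq neighbours. Of 13 pairs from shared seed families or polycistrons 5 passed: 4 in which miR-99a-5p rose against its partner, and the pair of let-7c and miR-125b. The pairs share entries, so these 5 are not separate results. The same number passed with quantile normalization, an alternative chosen after seeing the data, where the 5 log2 differences were 0.40 to 1.17 (limma, adjusted p = 0.00234 to 0.0431).

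Against miR-125b, miR-99a-5p stood at ratios of 0.474, 0.458 and 0.476 in controls and 1.08, 1.09 and 0.978 with AA2P. The ratio varied little between libraries of a group, and its log2 value rose by 1.16 (SE 0.0644, limma, adjusted p = 3.70e-04), where 31.9% of entries were called relative to miR-125b. Against miR-99b, the ratio was 0.714, 0.562 and 0.752 in controls and 1.34, 1.34 and 1.24 with AA2P, so that miR-99a-5p went from below miR-99b to above it in every AA2P library. That log2 difference was 0.96 (SE 0.125, limma, adjusted p = 0.00670, with 15.3% of entries called).

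Against miR-100, its nearest relative, miR-99a-5p stood at 0.0761, 0.0552 and 0.0741 in controls and at 0.142, 0.164 and 0.121 with AA2P. The groups did not overlap, and the log2 difference was 1.06 (SE 0.176, limma, adjusted p = 0.0232, with 13.4% of entries called). This call ended without control replicate 3 (adjusted p = 0.0603) and without AA2P replicate 1 (adjusted p = 0.0719), at log2 differences of 1.12 and 1.05.

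miR-99a-5p and let-7c, from neighbouring genes, did not keep their ratio. It was 0.782, 0.763 and 0.750 in controls and 1.25, 1.09 and 1.07 with AA2P, a log2 difference of 0.57 (SE 0.0797, limma, adjusted p = 0.00645, with 28.2% of entries called relative to let-7c). let-7c in turn rose against miR-125b, from 0.606, 0.5998 and 0.635 to 0.869, 0.995 and 0.917 (log2 difference 0.59, SE 0.0703, limma, adjusted p = 0.00247). The control libraries lay close together in both ratios, and the groups did not overlap.

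**Figure D3:**
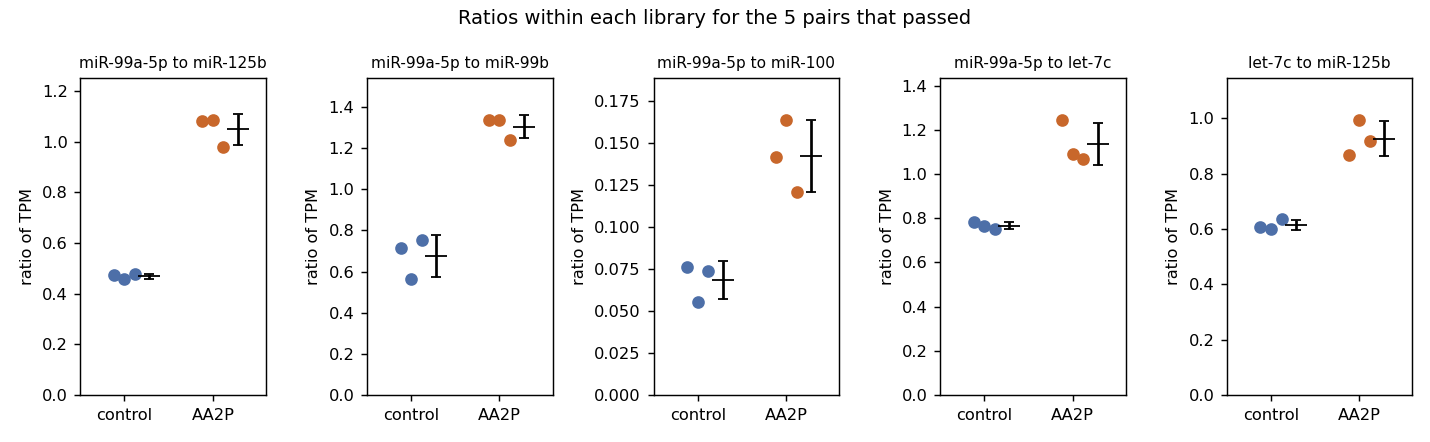
Ratio of TPM within each library for the 5 pairs that passed, on linear axes that start at 0, with control libraries in blue, AA2P libraries in orange (replicates 1 to 3 from left to right) and the mean ± SD of the 3 libraries beside them. In each pair all AA2P libraries lie above all control libraries, and miR-99a-5p stands at 0.458 to 0.476 of miR-125b in controls and at 0.978 to 1.09 with AA2P.

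Within the other 2 neighbourhoods no pair passed, where 3.7% of entries were called relative to let-7a, 31.9% relative to miR-125b, 18.1% relative to let-7e and 6.25% relative to miR-125a. The products of the MIR100 neighbourhood gave wide intervals: the log2 ratio of miR-100 to let-7a differed by -0.19 (95% interval -0.78 to 0.40, limma, adjusted p = 0.806), that of miR-100 to miR-125b by 0.10 (-0.25 to 0.45, adjusted p = 0.592) and that of let-7a to miR-125b by 0.29 (-0.11 to 0.70, adjusted p = 0.213). For the MIR99B neighbourhood the log2 ratio of miR-99b to let-7e differed by -0.07 (-0.33 to 0.19, limma, adjusted p = 0.684), that of miR-99b to miR-125a by 0.05 (-0.47 to 0.57, adjusted p = 0.929) and that of let-7e to miR-125a by 0.12 (-0.31 to 0.56, adjusted p = 0.749). Of the remaining pairs, miR-99b to miR-100 differed by 0.10 (-0.18 to 0.38, adjusted p = 0.593) and miR-125b to miR-125a by -0.15 (-0.58 to 0.29, adjusted p = 0.707). These intervals leave room for changes in either direction, so the pairs are not shown to keep their ratio.

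**Figure D4:**
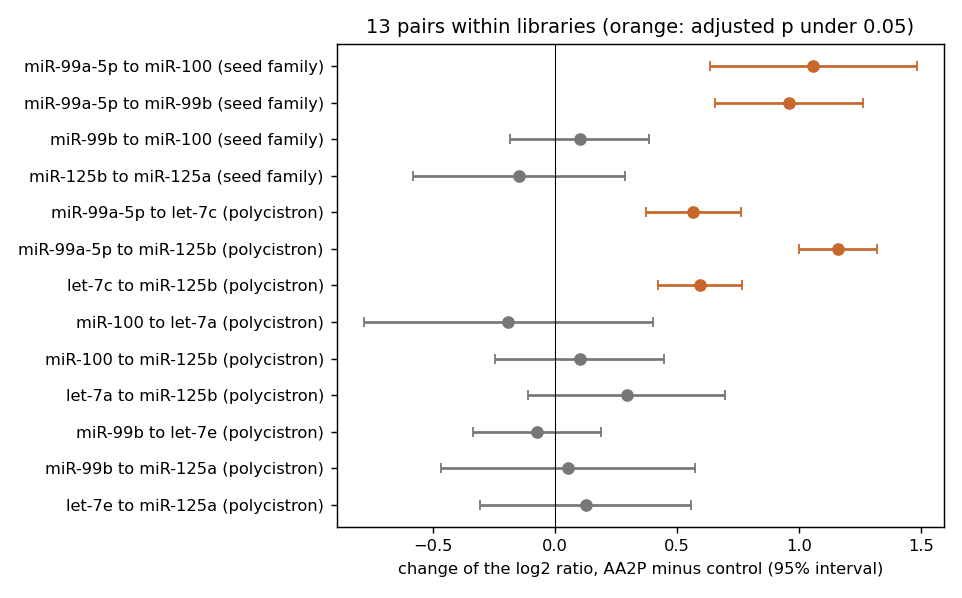
Change of the log2 ratio within libraries, AA2P minus control, with 95% intervals, for 13 pairs of a seed family or a polycistron, with orange for an adjusted p under 0.05. Pairs of miR-99a-5p or let-7c with miR-125b count as a polycistron by the arrangement in other mammals. The 4 pairs with miR-99a-5p as the first partner lie at 0.57 to 1.16, the pair of let-7c and miR-125b lies at 0.59, and the intervals of the other 8 include 0.

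Libraries of a group differed in the balance of the members. Control replicate 2 had the highest miR-100 and miR-99b of the controls and the lowest miR-99a-5p, miR-125a, miR-125b, let-7a, let-7c and let-7e. AA2P replicate 2 had the lowest miR-100 and the highest miR-125a and let-7a of its group. The ratio of miR-100 to let-7a therefore ran from 1.22 in AA2P replicate 2 to 2.46 in control replicate 2, a spread within groups that exceeded the difference between them.

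For each member with a mean of at least 10 TPM, which leaves out miR-99a-3p, the most similar entries were sought among 194 other known miRNAs with a mean of at least 10 TPM, by Pearson's r of log2(TPM + 1) over the 6 libraries, as a description. For miR-99a-5p they were miR-32 (0.998), miR-425-5p (0.998) and miR-148b-5p (0.997), all called higher with AA2P. Its libraries fall into the 2 groups, so these values mostly read the difference between groups. The call of miR-32 held under all 5 other scalings, that of miR-425-5p under 4 and that of miR-148b-5p under none. For miR-100 they were miR-331-3p (0.975), miR-151-5p (0.918) and miR-148a-3p (0.827), and for miR-99b miR-935 (0.931), miR-22-3p (0.906) and miR-1306-5p (0.899). For miR-125a they were miR-24-1-5p (0.949), miR-505 (0.923) and miR-98 (0.902), and for miR-125b miR-126-3p (0.884), miR-497 (0.870) and miR-331-5p (0.851). Of the 12 entries named for these 4 members, only miR-22-3p was called, as higher (limma, adjusted p = 0.0319). Among known miRNAs 31.8% were called. The call of miR-22-3p ended under all 5 other scalings, while miR-126-3p was called lower under 3 of them and miR-24-1-5p under 1.

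Other miRNAs known to repress MTOR or IGF1R were read as a list. Of 8 such miRNAs 6 were tested and 1 was called (16.7%, against 24.7% of all tested entries and 31.8% of known miRNAs). This was miR-7-5p, which rose from 9797 ± 1265 to 15409 ± 1929 TPM (SD, n = 3 per group, limma, adjusted p = 0.0156). Its call ended under 4 of the 5 other scalings. The median log2 fold change of the list was 0.03, against 0.25 for all tested entries. This median and the share called count miR-199a-3p and miR-199b-3p separately, though their values are identical. With that pair counted once, the middle value was that of miR-101, 0.14. miR-101 stood at 1663 ± 68.1 and 1855 ± 355 TPM and did not pass, and miR-199a-3p and miR-199b-3p, which share identical values, miR-145-5p and miR-497 had means of 1.28 to 11.2 TPM and did not pass. miR-144 and miR-223 were too scarce to be tested.

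Marker miRNAs of other cell types were summed in each library. The epithelial markers (3 of 5 listed) summed to 1588 to 1675 TPM in controls and to 2414 to 2959 TPM with AA2P. Most of this was miR-200b, which was called higher, as was miR-429, while miR-141 stood at 46.1 ± 1.36 and 45.0 ± 22.1 TPM (SD, n = 3 per group) and did not pass. The germ cell markers (2 of 4, nearly all miR-34c) summed to 169 to 183 and to 213 to 283 TPM. miR-34c itself was called higher (log2 fold change 0.43, limma, adjusted p = 0.0464). The sums of muscle and myoid markers (5 of 5; 167 to 227 and 219 to 306 TPM) overlapped between groups. Most of them was miR-1, whose groups did not overlap (126 to 172 and 185 to 267 TPM, log2 fold change 0.55, limma, adjusted p = 0.0746), while miR-143-3p stood at 34.6 ± 10.7 and 30.8 ± 8.22 TPM. The sums of blood and endothelial markers (7 of 7; 100.7 to 114 and 89.2 to 122 TPM) overlapped too and were nearly all miR-126-3p. Among the scarce ones, miR-142-3p, typical of leukocytes, rose from 0.507 ± 0.0802 to 1.98 ± 0.627 TPM (SD, n = 3 per group, limma, adjusted p = 0.0293). miR-142-5p was at 0.34 to 0.56 and 0.72 to 2.08 TPM, and miR-223 reached 5.40 TPM in AA2P replicate 1 and at most 0.06 TPM elsewhere. miR-486 went the other way, from 3.76 ± 0.549 to 2.34 ± 0.710 TPM (SD, n = 3 per group). Its groups overlapped, and it did not pass (log2 fold change -0.53, limma, adjusted p = 0.118). miR-451 overlapped between groups, at 0.31 to 0.81 and 0.31 to 1.11 TPM. The part of these markers in the rise of miR-99a-5p was not tested. The calls of miR-200b, miR-429, miR-34c and miR-142-3p are given for the deposited TPM only, without the other scalings. Mesenchymal markers (3 of 3) stayed at or below 2.34 TPM in every library, with miR-199a-5p and miR-214-3p under 1 TPM. Of the gonadal markers (5 of 5; 1052 to 1174 and 1115 to 1256 TPM) nearly all was miR-140-3p. miR-202-5p, the main arm of a miRNA typical of Sertoli cells, stood at only 0.657 ± 0.316 and 0.517 ± 0.142 TPM (SD, n = 3 per group), so a miRNA typical of the labelled cell type was scarce.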

How the data were processed

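Per the labels' protocols, total RNA of 3 control and 3 AA2P cell samples was isolated with Trizol, and libraries, of microRNA by the study's title, were sequenced on an Illumina NovaSeq instrument. Values came as TPM in 1 table by the authors, rounded to 2 decimals, in which the 358 known and 1287 predicted entries of a library sum to 999999.82 to 1000000.08. Bowtie was among the tools, per the submitters' processing notes, without a version. Build, miRBase release and the treatment of multi-mapping reads: not given in the sources used here. All deposited values up to 20 TPM lay within 0.0051 TPM of a whole multiple of 1 step per library, which gave the depths. Floors of 3 reads, 0.0834 to 0.116 TPM, cover counting error only.

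Entries that reached 1 TPM in 3 or more libraries were tested with limma 3.58.1 in R 4.3.3 on log2(TPM + 1), with a mean-variance trend, two-sided p-values and Benjamini-Hochberg adjustment over all entries of a fit. Fold values are ratios of mean TPM. Arm use was tested by limma without a trend. The fits were tested on simulated data. The correlation of deviations from group means between same-numbered libraries was 0.29, 0.06 and 0.18, not above 0.1 throughout, and the main fit had no block.

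The entries named were the members, the let-7 partners, the 3 entries most like each member with a mean of at least 10 TPM, and listed miRNAs that complete small counts. The members, lists and pairs were chosen with earlier results of these data known. Mature sequences are not shown.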

Additional observations from a re-analysis of the deposited data

How the results depend on the processing

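The count of 107 calls over all entries became 57 with no filter on low values and 63 with the replicate block, and it ranged from 62 to 98 with 1 library left out, the lowest without control replicate 3. Of the 13 pairs, 3 in place of 5 passed with the replicate block: the ratio of miR-99a-5p to miR-100 had an adjusted p of 0.0894 and that of miR-99a-5p to let-7c 0.0503, and let-7c itself 0.0568, all by limma. The numbers are not shown to pair the libraries, so a call lost under the block is not read as a weaker effect. With 1 library left out 4 to 5 pairs passed; the ratio of let-7a to miR-125b passed without AA2P replicate 1 (log2 difference 0.45, limma, adjusted p = 0.0481). For arm ratios 0 of 39 hairpins passed (4 at an unadjusted p under 0.05), and with 1 library left out 0 to 3. Log2 ratios of summed TPM moved with the scaling (trimmed-mean, median-of-ratios, totals without miR-21-5p, totals without the 10 most abundant, in this order), each of which divides all entries of a library by 1 factor. The miR-99/100 sum went from 0.14 to -0.14, -0.13, -0.15 and -0.056, the miR-125 sum from -0.02 to -0.30, -0.29, -0.32 and -0.22, and the sum of all members from 0.12 to -0.16, -0.15, -0.17 and -0.078. The let-7 partners went from 0.27 to 0.0062, 0.0074 and -0.024 under the first 3. With 1 library left out the 4 sums ranged from 0.078 to 0.20, from -0.10 to 0.042, from 0.062 to 0.16 and from 0.16 to 0.36. Quantile normalization put let-7i-5p lower, at -0.21. In the deposited TPM let-7i-5p was higher with AA2P, without overlap (75468 to 80265 and 82896 to 102822 TPM, log2 fold change 0.24), and did not pass. Depth was lowest for miR-99a-3p, with 49 to 154 reads a library.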

Other observations

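Other let-7 family members, which share their seed with let-7a, let-7c and let-7e, all had a higher mean in AA2P libraries in the deposited TPM. Their median log2 fold change was 0.30, against 0.25 for all tested entries. Of 5 tested 2 were called (40%, against 24.7% of all tested entries and 31.8% of known miRNAs). let-7f-5p (33559 ± 1920 to 44951 ± 5924 TPM) and let-7g (23349 ± 1801 to 31535 ± 4175 TPM) rose (SD, n = 3 per group, limma, adjusted p = 0.0382 and 0.0393), and let-7d-5p, let-7i-5p and miR-98 did not pass. Neither call held under the 5 other scalings. let-7c had the largest log2 fold change of the 8 let-7 and miR-98 entries listed (0.53).

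The miR-10 miRNAs are distant relatives of miR-99 and miR-100 by sequence. miR-10b rose from 9191 ± 720.3 to 12917 ± 1848 TPM (SD, n = 3 per group; limma, adjusted p = 0.0313), a call that ended under all 5 other scalings. miR-10a-5p stood at 16649 ± 513 and 19675 ± 2117 TPM and did not pass (adjusted p = 0.110).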
